A study of Mus musculus with 8 samples.

Results

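A set of 10 genes known as markers of macrophages was followed across cultures of mouse embryonic fibroblasts that lack Gadd45a, Ing1, both or neither: Fcer1g, Tyrobp, Csf1r, Cx3cr1, Fcrls, Laptm5, Cd52, Ms4a6d, Lyz1 and Lyz2. They were taken by symbol, with every probe annotated to them, and make up 10 of 19057 named genes and 19 of 45281 probes on the Illumina array. They were selected on their measured intensities in these arrays: several were higher in both single knockouts than in wild type and not in the double knockout. The differences from wild type and from the double knockout are therefore given below as values with no test. Each genotype had 2 arrays: wild type (WT), the single knockouts Gadd45a-/- and Ing1-/-, and the double knockout of both genes (DKO). All came from male C57BL/6 embryos at embryonic stage E15.5, and the confluent cultures were collected at passage 3. Gadd45a encodes a stress-induced protein and Ing1 a chromatin-binding one. The design text speaks of duplicates for each fibroblast line. Both arrays of a genotype may thus be 1 line, in which case an effect of the line cannot be told apart from one of the genotype, and the spread behind each p-value may be technical.

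Macrophages are phagocytes that enter embryonic tissues early, and they survive and divide on colony-stimulating factor 1, which binds the receptor encoded by Csf1r. They take up particles through Fc receptors and related proteins, which signal through adaptor chains with an immunoreceptor tyrosine-based activation motif (ITAM), and they secrete lysozyme. Cultures grown out of whole embryos can carry such cells beside the fibroblasts. In a bulk culture, fewer cells of a type and less RNA per cell cannot be told apart.

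Across the arrays, 14277 to 14778 probes were above background (detection p under 0.01 against the negative controls of the array), and 14867 probes above background on both arrays of at least 1 genotype were tested. Of the 11 fibroblast markers with a named probe, all 11 were above background on both WT arrays, and 10, 9 and 9 in Gadd45a-/-, Ing1-/- and DKO. The 2 WT arrays correlated least among the replicate pairs across tested probes (Pearson's r 0.9876, against 0.9912 to 0.9937 in the other genotypes). Pairs of different genotypes ran from 0.9799 to 0.9898, so some were closer than the WT pair, such as WT replicate 2 with Ing1-/- replicate 2 (0.9889). The targeted gene did not check the labels: both Gadd45a probes had more signal on arrays labelled Gadd45a-/- (brighter probe 11.82) and DKO (11.74) than on those labelled WT (10.82) or Ing1-/- (10.13). Where the deletion lies relative to these probes is not known here, so directions below are for arrays as labelled. The Ing1 probe was above background on no array and checks no label.

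All 10 genes had a named probe, and 8 of them had at least 1 probe that was tested. Of the 19 probes 9 were tested: 2 for Lyz2 and 1 each for Fcer1g, Laptm5, Cd52, Lyz1, Fcrls, Cx3cr1 and Ms4a6d. Of these 9, 5 were above background on all 8 arrays. The other 4, of Cd52, Fcrls, Cx3cr1 and Ms4a6d, passed only through the single knockouts, where they are bright, so counts over the tested probes are descriptions and give no support of their own. The last probe to pass was that of Ms4a6d, with a detection p of at most 0.00748 on both Ing1-/- arrays, and the nearest to miss was a Csf1r probe at 0.0267. Levels below are log2 normalized intensities, differences are on that log2 scale, and ± is the SD of 2 arrays for a level and the standard error for a difference. A gene's level is compared only with itself, since probes differ in brightness.

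**Figure D1:**
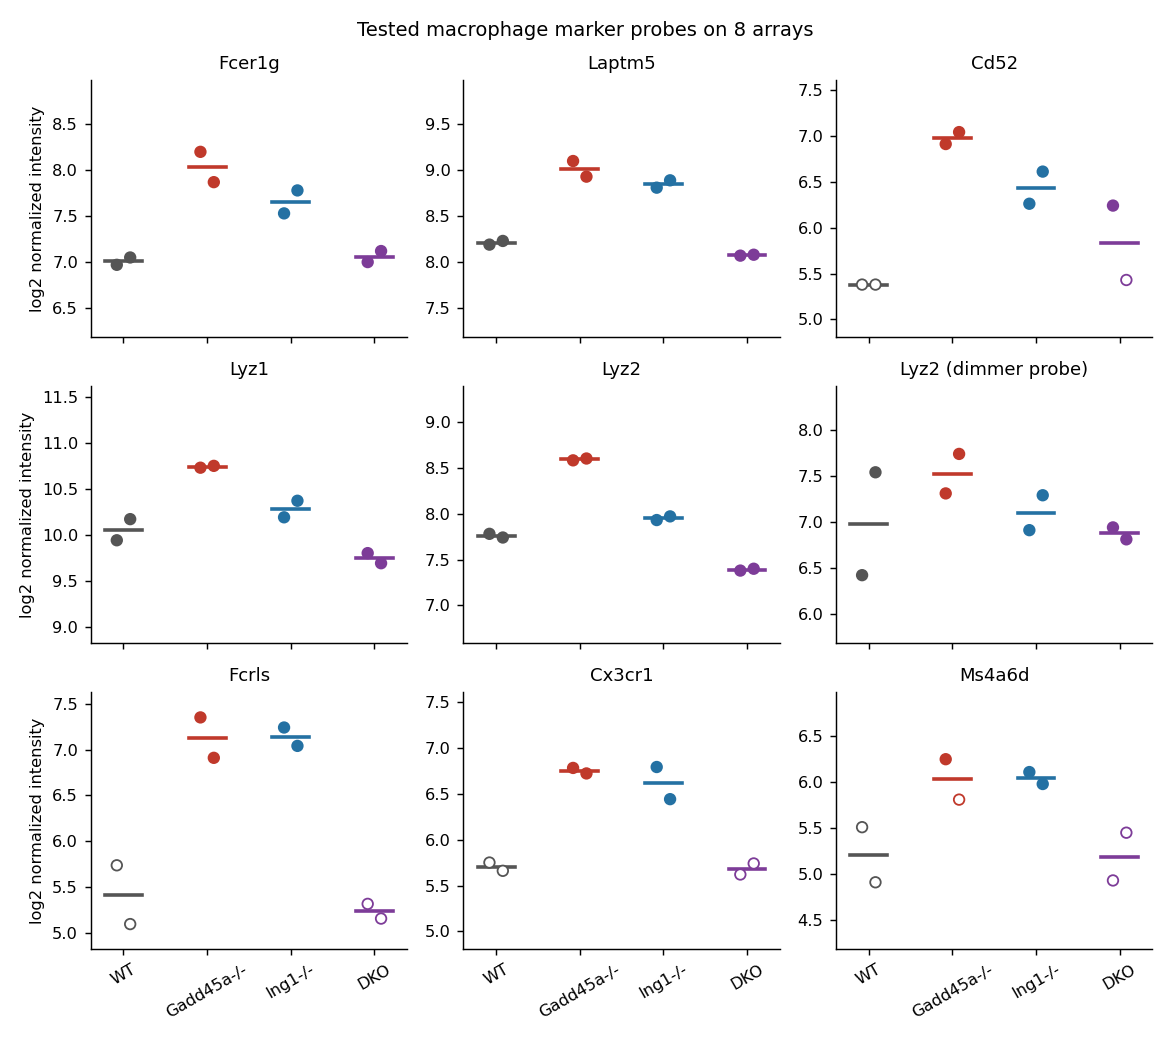
Log2 normalized intensity of the 9 tested member probes (panels) in the 4 genotypes. Points are arrays, filled where the probe was above background and open where it was not, and bars are means of 2 arrays; every panel spans the same range of log2 units. In 8 of the 9 panels every Gadd45a-/- and Ing1-/- point lies above every WT and DKO point, narrowly for Cd52 (6.26 against 6.24) and Lyz1 (10.19 against 10.17). The panel of the dimmer Lyz2 probe is the exception. The genes were picked for this pattern and its share over all tested probes was not counted, so nothing is read from the count.

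The first group of members are receptor chains. Fcer1g encodes the common gamma chain of Fc receptors, an ITAM adaptor. Its probe (ILMN_2748875) read 6.97 and 7.05 in WT, 8.20 and 7.87 in Gadd45a-/-, 7.53 and 7.78 in Ing1-/-, and 7.00 and 7.12 in DKO. The single knockouts did not overlap with WT or DKO, Gadd45a-/- was the higher of them, and WT and DKO overlapped. The difference from WT was 1.02 ± 0.15 in Gadd45a-/- (2.03-fold), 0.65 ± 0.15 in Ing1-/- (1.56-fold) and 0.05 ± 0.15 in DKO. Tyrobp encodes DAP12, an adaptor with the same motif that pairs with TREM2 and other myeloid receptors. Its only probe was above background on no array, with levels of 5.45 and 5.15 in WT, 5.81 and 5.29 in Gadd45a-/-, 5.13 and 5.27 in Ing1-/-, and 5.19 and 4.94 in DKO, so no difference can be read from it.

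Fcrls encodes an Fc receptor-like protein found on mouse microglia and some macrophages. Its brightest probe (ILMN_2770968) read 5.74 and 5.10 in WT, 7.35 and 6.91 in Gadd45a-/-, 7.24 and 7.04 in Ing1-/-, and 5.32 and 5.16 in DKO. It was above background on the 4 single-knockout arrays and on none of the others. Against WT it was at least 2.29-fold higher in Gadd45a-/- and at least 2.31-fold higher in Ing1-/-, and the bounds against DKO were 2.28-fold and 2.30-fold. Such bounds set the bright genotype's mean against a floor, for each array whichever is higher, its reading of that probe or its dimmest probe still above background. DKO and WT were both below background. The other 2 Fcrls probes were above background on no array.

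Cx3cr1 encodes the receptor for fractalkine, the chemokine made by the gene Cx3cl1, and is a marker of microglia and monocytes. Its probe (ILMN_2625125) read 5.75 and 5.66 in WT, 6.78 and 6.72 in Gadd45a-/-, 6.79 and 6.44 in Ing1-/-, and 5.62 and 5.74 in DKO. As with Fcrls, the probe cleared the background on the 4 single-knockout arrays alone. It was at least 1.76-fold higher than WT in Gadd45a-/- and at least 1.61-fold higher in Ing1-/-, with closely similar bounds against DKO. Csf1r, the receptor that sustains the lineage, was almost unmeasured: 1 of its 2 probes was above background on 1 array, Gadd45a-/- replicate 2, at 6.22 against 5.23 on Gadd45a-/- replicate 1. In the order WT, Gadd45a-/-, Ing1-/- and DKO, that probe averaged 5.40 ± 0.16, 5.72 ± 0.70, 5.72 ± 0.10 and 5.35 ± 0.16, and no difference can be read from values at the background.

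The ligands of these receptors did not share the pattern. Csf1, which encodes colony-stimulating factor 1, averaged 10.86 ± 0.01, 10.74 ± 0.02, 10.93 ± 0.09 and 11.26 ± 0.09 in the same order, so that DKO was the highest of the 4 genotypes. Cx3cl1 ranged from 8.98 to 9.31 over the 8 arrays. No comparison with WT passed for either gene; the largest, Csf1 in DKO, was 0.41 ± 0.11 (limma adjusted p = 0.111). The probe of Il34, the second ligand of the Csf1r receptor, was above background on no array.

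The second group are membrane proteins of blood-derived cells. Laptm5 encodes a lysosomal transmembrane protein of haematopoietic cells. Its probe (ILMN_1217849) read 8.19 and 8.23 in WT, 9.10 and 8.93 in Gadd45a-/-, 8.81 and 8.89 in Ing1-/-, and 8.07 and 8.08 in DKO. Replicates lay within 0.17 of each other in every genotype, the single knockouts stood clear of WT, and DKO lay just below WT. The difference from WT was 0.80 ± 0.11 in Gadd45a-/- (1.74-fold), 0.64 ± 0.11 in Ing1-/- (1.56-fold) and -0.14 ± 0.11 in DKO.

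Cd52 encodes a small GPI-anchored glycoprotein of lymphocytes and monocytes. Its brighter probe (ILMN_2910934) read 5.38 on both WT arrays, 6.91 and 7.04 in Gadd45a-/-, 6.26 and 6.61 in Ing1-/-, and 6.24 and 5.43 in DKO. Gadd45a-/- was the highest genotype, Ing1-/- followed, and the 2 DKO arrays disagreed by 0.81, 1 of them above background near the lower Ing1-/- array. Cd52 was at least 2.06-fold higher than WT in Gadd45a-/- and at least 1.42-fold higher in Ing1-/-. Ms4a6d, of the membrane-spanning 4-domain family, read 5.51 and 4.91 in WT, 6.25 and 5.81 in Gadd45a-/-, 6.11 and 5.98 in Ing1-/-, and 4.93 and 5.45 in DKO at its brighter probe (ILMN_1241695). Its groups did not overlap between the single knockouts and the others, but 3 of the 8 arrays were above background. The bound against WT was at least 1.08-fold in Ing1-/-. For Gadd45a-/- the same calculation gave 1.07-fold, but 1 of its arrays was itself at the background (detection p 0.0107), so this is no firm bound.

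The third group are the lysozymes, enzymes that cut bacterial cell walls. Lyz2 is the lysozyme of mouse macrophages and granulocytes, and Lyz1 is its close relative, best known from the Paneth cells of the gut. The 2 genes are similar in sequence, and the files hold no probe sequences, so it was not tested whether a probe reads both. The brightest Lyz1 probe (ILMN_2878071) read 9.94 and 10.17 in WT, 10.73 and 10.75 in Gadd45a-/-, 10.19 and 10.37 in Ing1-/-, and 9.80 and 9.69 in DKO. The brighter Lyz2 probe (ILMN_1252076) read 7.78 and 7.74 in WT, 8.58 and 8.60 in Gadd45a-/-, 7.93 and 7.97 in Ing1-/-, and 7.38 and 7.40 in DKO. For both genes the order was Gadd45a-/-, Ing1-/-, WT and DKO with no overlap between neighbours, and Ing1-/- lay much nearer to WT than to Gadd45a-/-. Lyz1 differed from WT by 0.69 ± 0.13 in Gadd45a-/-, 0.22 ± 0.13 in Ing1-/- and -0.31 ± 0.13 in DKO. For Lyz2 the differences were 0.83 ± 0.10, 0.19 ± 0.10 and -0.37 ± 0.10. The second tested Lyz2 probe (ILMN_2939681) varied more between the WT arrays, which read 6.42 and 7.54, than between any 2 genotype means, so it separated none of the genotypes from WT.

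The 10 untested probes were spread over Cd52, Lyz1, Lyz2, Fcrls, Tyrobp, Ms4a6d and Csf1r and lay between 4.45 and 6.22. Of their 80 array values 1 was above background, that of Csf1r. On average 9 of the 10 were higher in Gadd45a-/- than in WT, 8 in Ing1-/- and 4 in DKO, with median differences of 0.29, 0.15 and -0.02 that the background largely sets.

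**Figure D2:**
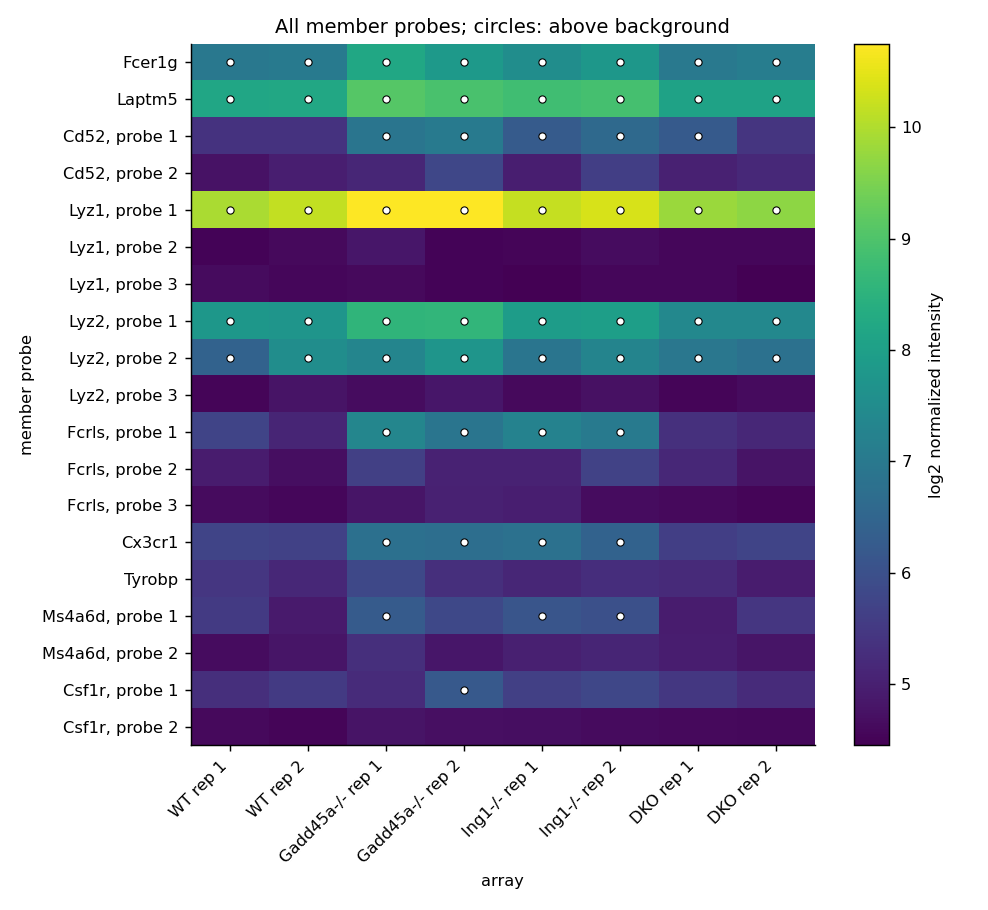
Log2 normalized intensity (colour) of all 19 member probes (rows, numbered by brightness within a gene) on the 8 arrays (columns). A circle marks a probe above background on that array: 5 probes carry circles on all 8 arrays and 9 carry none, and the rows of Fcrls probe 1 and Cx3cr1 have circles on the 4 single-knockout arrays alone.

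Promoter sequence is shown for 4 of the members whose levels moved together, from 250 bases upstream of the annotated start, on the gene's own strand (RefSeq, build GRCm38.p6). Of the 10 genes, 6 have a sequence shown or searched here: Fcer1g, Laptm5, Lyz1, Lyz2, Fcrls and Cx3cr1. Capitals mark a match on either strand to GAGGAA, a core bound by the myeloid factor PU.1, or to TTGCNNAA, a C/EBP motif, and the 2 motifs do not overlap in these windows.
Laptm5, + strand, chr4:130913066-130913315: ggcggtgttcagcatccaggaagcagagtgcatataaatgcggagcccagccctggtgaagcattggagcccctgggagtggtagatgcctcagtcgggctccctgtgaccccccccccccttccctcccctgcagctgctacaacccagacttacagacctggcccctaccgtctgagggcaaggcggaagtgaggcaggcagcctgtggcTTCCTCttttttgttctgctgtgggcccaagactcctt
Fcrls, - strand, chr3:87263525-87263774: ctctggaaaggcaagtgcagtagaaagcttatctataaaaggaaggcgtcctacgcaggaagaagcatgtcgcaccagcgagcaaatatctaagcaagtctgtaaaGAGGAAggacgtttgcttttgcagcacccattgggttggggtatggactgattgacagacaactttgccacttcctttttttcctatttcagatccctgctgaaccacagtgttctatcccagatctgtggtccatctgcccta
Lyz1, - strand, chr10:117292869-117293118: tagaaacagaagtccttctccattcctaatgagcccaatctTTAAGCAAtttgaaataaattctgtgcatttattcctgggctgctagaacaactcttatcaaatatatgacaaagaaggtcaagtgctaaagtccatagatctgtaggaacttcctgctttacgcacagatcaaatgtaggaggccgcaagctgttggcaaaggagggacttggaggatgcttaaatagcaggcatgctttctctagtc
Lyz2, - strand, chr10:117282273-117282522: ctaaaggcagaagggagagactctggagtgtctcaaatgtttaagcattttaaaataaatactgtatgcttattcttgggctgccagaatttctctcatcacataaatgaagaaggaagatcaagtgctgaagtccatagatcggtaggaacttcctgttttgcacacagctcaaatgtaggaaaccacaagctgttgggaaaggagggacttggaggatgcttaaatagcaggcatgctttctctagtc
GAGGAA was found in 2 of the 6 windows, those of Laptm5 and Fcrls, and in 23.3% of all 32851 promoter windows of this length. TTGCNNAA was found in 1 of the 6, that of Lyz1, and in 9.56% of all windows. A match is a string of letters and not a shown binding site. The Lyz1 and Lyz2 windows, both on chromosome 10, were alike at 78.8% of 260 aligned columns, against at most 50.3% for any other pair of the 6. Lyz1 and Lyz2 were among the member pairs whose levels correlated most over the 8 arrays (Pearson's r 0.97). Any link of that to the promoters was not tested, nor was whether a probe reads both genes.

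Over the 9 tested probes, all 9 were higher on average than WT in Gadd45a-/- and in Ing1-/-, and 2 were higher in DKO. These contrasts chose the genes, so nothing is read from the counts. At the 5 probes above background on all 8 arrays, DKO minus Gadd45a-/- ran from -1.20 for the brighter Lyz2 probe to -0.65 for the dimmer one, and DKO minus Ing1-/- from -0.78 for Laptm5 to -0.22 for the dimmer Lyz2 probe. The arrays of Gadd45a-/- lay wholly above WT at 8 of 9 probes (21.6% of all tested probes) and those of Ing1-/- at 8 of 9 (21.8%). DKO lay wholly below Gadd45a-/- at 9 of 9 (22.8%) and below Ing1-/- at 8 of 9 (23.3%), while against WT it lay wholly below at 3 of 9 (22.1%), Laptm5, Lyz1 and Lyz2, and wholly above at 1 (23.7%), Cd52.

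With the brightest tested probe for each of the 8 measured genes, the median difference from WT was 0.93 in Gadd45a-/-, 0.74 in Ing1-/- and -0.08 in DKO, against medians of 0.00, 0.01 and 0.01 over all tested probes. With the 4 genes at background in WT set to their bounds, the medians were 0.82 in Gadd45a-/- and 0.57 in Ing1-/-. Over the 4 genes above background on all arrays they were 0.82, 0.43 and -0.22 in Gadd45a-/-, Ing1-/- and DKO. Over all 19 member probes, the dim ones included, the medians were 0.55, 0.32 and -0.03. Levels averaged over the 8 genes were 6.91 and 6.78 on the WT arrays, 7.99 and 7.83 in Gadd45a-/-, 7.61 and 7.64 in Ing1-/-, and 6.79 and 6.76 in DKO. The 2 single knockouts therefore ranked above WT and DKO, Gadd45a-/- first, and WT replicate 2 lay between the DKO arrays. The comparisons share the WT arrays, and the values stand side by side for that reason.

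A further question was whether the members kept fixed proportions to one another, as the transcripts of a mixed-in cell type of constant makeup would. This was described on the linear scale after background correction, where the excess of each probe over its WT mean in Ing1-/- was set against its excess in Gadd45a-/-. Fcrls and Ms4a6d had about the same excess in both single knockouts, at 99.5% (110% and 89.3% on the 2 Ing1-/- arrays) and 100% (111% and 89.8%). Cx3cr1 followed at 83.9% (106% and 62.4%) and Laptm5 at 75.0% (68.9% and 81.2%). Fcer1g and Cd52 had about the same share, 54.4% (41.8% and 67.0%) and 54.1% (41.8% and 66.4%). Lyz1 and Lyz2 were lowest, at 27.3% (15.0% and 39.6%) and 18.5% (16.2% and 20.8%), and the noisier second Lyz2 probe read 4.49% (-32.3% and 41.3%). These shares rest on the differences that chose the genes and were not tested. For Fcrls, Ms4a6d, Cx3cr1 and Cd52 they are also set against WT readings at the background. Among the brightest probes of the 4 genes above background on all arrays, both Ing1-/- arrays of Laptm5 and Fcer1g lay above those of Lyz1 and Lyz2, narrowly between Fcer1g (41.8%) and Lyz1 (39.6%). Scaling each array to a common median, in place of quantile normalization, lowered the shares (Lyz1 3.09%, Lyz2 -2.20%, Laptm5 56.2%, Fcrls 89.7%), and the sign for Lyz2 turned.

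The WT mean could be set against the Gadd45a-/- mean for the 4 genes above background in both: it was 61.9% of it for Lyz1, 55.9% for Laptm5, 54.3% for Lyz2 and 45.6% for Fcer1g. In DKO the excess over WT of the same genes, as a share of the Gadd45a-/- excess, was -32.1% for Lyz1, -28.8% for Lyz2, -12.2% for Laptm5 and 3.56% for Fcer1g. Both DKO arrays lay below the WT mean for Lyz1, Lyz2 and Laptm5, and the Fcer1g arrays lay on either side of it (-0.741% and 7.87%). Fcrls, Cx3cr1 and Ms4a6d were below background in both genotypes, and Cd52 was above it on 1 DKO array.

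**Figure D3:**
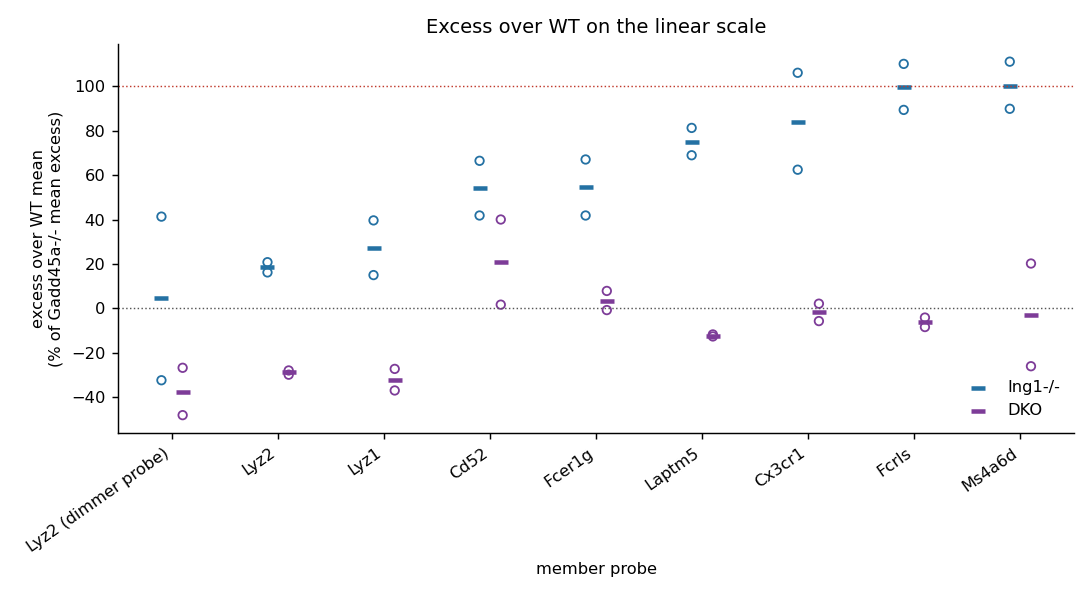
Linear background-corrected signal above the WT mean (dotted line at 0) in Ing1-/- and DKO, as a percent of the mean excess in Gadd45a-/- (dotted line at 100), for the 9 tested member probes ordered by their value in Ing1-/-. Circles are arrays and dashes are means of 2 arrays: Ing1-/- runs from 4.49% for the dimmer Lyz2 probe to 100% for Ms4a6d, while the DKO means lie between -37.4% and 20.8%, and the WT readings of Cd52, Fcrls, Cx3cr1 and Ms4a6d behind these shares are at the background.

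The one contrast between genotypes that did not choose the genes is that of the 2 single knockouts. Lyz2 alone passed, higher in Gadd45a-/- by 0.64 ± 0.10 at its brighter probe (95% interval 0.40 to 0.88, limma adjusted p = 0.0485, both Gadd45a-/- arrays above both Ing1-/- arrays). That makes 1 of 9 member probes, where 0.659% of all 14867 tested probes passed in either direction. The call was kept in 2 of 17 other settings: it was lost without any 1 of the 8 arrays (limma adjusted p 0.0793 to 0.255), with the authors' processed values (0.0554), with median scaling (0.181) and with the replicate number as a block (0.0839), the difference staying between 0.47 and 0.74. Lyz1 was 0.47 ± 0.13 higher in Gadd45a-/- (95% interval 0.17 to 0.77, limma adjusted p = 0.257). Cd52 was 0.54 ± 0.25 higher (-0.03 to 1.11) and Fcer1g 0.38 ± 0.15 higher (0.03 to 0.73), neither past the threshold (limma adjusted p = 0.618 and 0.525). Laptm5 and Cx3cr1 differed by 0.16 ± 0.11 (-0.10 to 0.43) and 0.14 ± 0.14 (-0.19 to 0.46). For Fcrls and Ms4a6d the differences were -0.01 ± 0.23 (-0.54 to 0.53) and -0.02 ± 0.25 (-0.60 to 0.57). These intervals overlap those of Lyz1 and Lyz2, and whether members differ from one another in this contrast was not tested. The arrays of Gadd45a-/- lay wholly above those of Ing1-/- at 6 of 9 probes, against 17.7% of all tested probes.

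**Figure D4:**
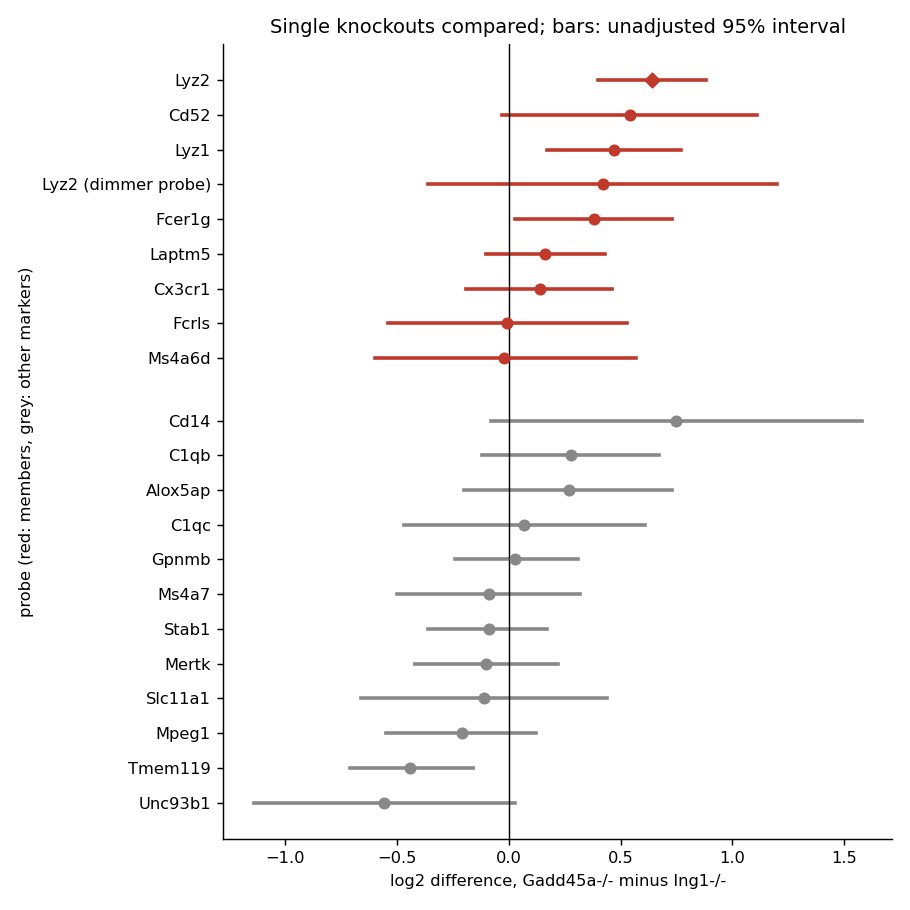
Log2 difference of Gadd45a-/- minus Ing1-/- (point) with its unadjusted 95% interval (line) for the 9 tested member probes (red) and 12 other macrophage markers (grey). The diamond marks Lyz2, the one probe past the adjusted threshold; member differences run from -0.02 to 0.64.

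Differences between replicate arrays, which the choice of genes did not use, are given as a description. In Gadd45a-/- the first array was higher than the second at Fcer1g (0.33), Laptm5 (0.17), Fcrls (0.43) and Ms4a6d (0.44), and lower at Cd52 (-0.13) and the dimmer Lyz2 probe (-0.42), with Lyz1, Lyz2 and Cx3cr1 within 0.06 of each other. In Ing1-/- the first array was lower at the dimmer Lyz2 probe (-0.38), Cd52 (-0.34), Fcer1g (-0.24) and Lyz1 (-0.19) and higher at Cx3cr1 (0.35) and Fcrls (0.21). The members thus did not all shift the same way between replicates: 5 of 9 were higher on the first array in Gadd45a-/-, 3 in Ing1-/-, 4 in WT and 4 in DKO. Over all tested probes the SD of the same difference was 0.28 in both single knockouts, 0.33 in WT and 0.24 in DKO, so members such as Fcrls and Ms4a6d in Gadd45a-/- and the dimmer Lyz2 probe in WT (-1.12) moved by more than that SD. If both arrays of a genotype are 1 line, a mixed-in cell type need not shift between them. Nothing about such cells is therefore read from these differences. At Cd52, Fcrls, Cx3cr1 and Ms4a6d the WT readings were also at the background.

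Across the 8 arrays the 28 pairs among the 8 measured genes had Pearson correlations from 0.64 to 0.97, median 0.87. The closest were Lyz1 with Lyz2 and Fcrls with Cx3cr1 (0.97 each), then Laptm5 with Fcer1g, Fcrls and Cx3cr1 (0.96 each). The weakest were Ms4a6d with Lyz1 and with Cd52 (0.64 each). The points share genotypes of 2 arrays each and the normalization, and the genes were picked for a common pattern, so these values are descriptions. Of 8647 other named genes tested, the 10 with levels most like the mean of the members over the 8 arrays were Eif2b5 (r 0.985), C1qb (0.967), Ubap2l (0.961), Zfp523 (0.955), Tirap (0.952), Gas7 (0.934), Iqcb1 (0.933), Sdcbp2 (0.932), Cyth4 (0.930) and Fzr1 (0.929). Tirap encodes an adaptor of Toll-like receptors, and Eif2b5 a subunit of a translation initiation factor. Eif2b5 differed by little, from 9.44 in WT to 9.70 in Gadd45a-/-, while C1qb went from 5.92 to 7.80, so likeness of pattern did not mean likeness of size.

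Other markers of macrophages and microglia were counted next, from a list of 56 genes of which 50 had a named probe and 12 were tested. In Gadd45a-/- 2 of the 12 rose against WT and none fell, where 1.33% of all tested probes changed, and these were C1qb and C1qc. C1qb, a chain of complement C1q, was higher by 1.87 ± 0.17 in Gadd45a-/- and by 1.60 ± 0.17 in Ing1-/- (limma adjusted p = 0.00345 and 0.0144), while 1 WT array had it above background. C1qc, another chain, exceeded WT by 1.36 ± 0.23 in Gadd45a-/- (limma adjusted p = 0.0382). Its probe was above background on 1 WT and 1 DKO array, so it was tested only through the single knockouts, where it is bright. In Ing1-/- C1qb was the only 1 of the 12 to pass (0.417% of all tested probes). Both C1qb and C1qc were lower in DKO than the 2 losses would add up to (interaction -3.23 and -2.72, limma adjusted p = 0.00906 and 0.0344), as 0.135% of all tested probes were. These interactions were not refitted under the other settings. In DKO none of the 12 rose against WT and Gpnmb, a glycoprotein of macrophages and other cells, fell by 0.63 ± 0.12 (limma adjusted p = 0.028, 3.80% of all tested probes). The medians of the 12 were 0.51, 0.56 and 0.11 in Gadd45a-/-, Ing1-/- and DKO, and 9, 10 and 9 of them were higher than WT on average. Between the single knockouts none of the 12 passed in limma and 1 had an unadjusted p under 0.05. The list was drawn up with results of these arrays known, so it is no independent evidence. The C1qc call was lost without 7 of the 8 arrays taken 1 at a time and the C1qb call in Ing1-/- without 5 of them, while C1qb in Gadd45a-/- kept an adjusted p of at most 0.04; Gpnmb lost its call without any 1 array (0.0527 to 0.208).

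The defining markers of the lineage were not measurable. Adgre1 (the F4/80 antigen), Itgam (CD11b), Spi1 (the transcription factor PU.1), Aif1 (IBA1) and Ptprc (CD45, carried by all leukocytes) have 12 probes, and none was above background on any array. The brightest reading among them was 5.83, for Spi1 on Gadd45a-/- replicate 2, where Adgre1 (5.82) and Aif1 (5.57) also had their highest readings. Itgam (4.95) and Ptprc (5.01) had theirs on WT replicate 1. All these readings were below background, so no order of genotypes is read from them. Cd68, the remaining defining marker, had no named probe. The summed linear signal of the 10 members ran from 1740 to 1880 on the WT arrays, 3200 to 3330 for Gadd45a-/-, 2380 to 2580 for Ing1-/- and 1490 to 1570 for DKO, of which Lyz1 alone averaged 1050 in WT. Over the 50 other macrophage markers the sum ran from 10500 to 11200 for WT, 10600 to 10700 for Gadd45a-/-, 11400 to 11500 for Ing1-/- and 9810 to 10200 for DKO, and it includes Stab1 and Gpnmb, which had log2 levels of 12.31 and 11.18 already in WT. Whether a small share of macrophages in the single-knockout cultures accounts for the members' levels was not tested.

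Among markers of all leukocytes, 4 of 24 were tested, and Cd72 alone passed, in Gadd45a-/-, at least 1.33-fold higher than WT (limma adjusted p = 0.0196, where 1.33% of all tested probes changed). The Cd72 probe was above background in the single knockouts alone. It was thus tested only through genotypes where it is bright, and the call gives no support of its own. Coro1a, an actin-binding protein of leukocytes, did not pass at its brighter probe. That probe read 6.46 and 6.76 in WT, 7.44 and 7.15 in Gadd45a-/-, 7.23 and 7.32 in Ing1-/-, and 7.08 and 6.80 in DKO. The dimmer Coro1a probe (ILMN_2787257) read 5.08 and 5.33, 6.16 and 6.15, 6.24 and 6.37, and 5.16 and 5.84 in the same order. It was above background on the 4 single-knockout arrays alone. Evi2a and Arhgdib, the rest of those tested, did not pass. Evi2a averaged 6.93, 7.41, 7.23 and 7.17 in the same order, so DKO stayed above WT. Arhgdib averaged 12.50, 12.40, 12.54 and 12.24, with Gadd45a-/- below WT. Of 17 ITAM signalling partners with a named probe, Plcg2 and Lat2 were measured and neither passed (limma, 1 of the 2 with an unadjusted p under 0.05 in Gadd45a-/-). No marker of granulocytes (11 with a probe), B cells (8) or erythroid cells (8) was above background on both arrays of any genotype. Among 11 osteoclast markers, a cell of the same lineage, 6 were tested and 2 fell in Gadd45a-/- and in DKO, where 1.33% and 3.80% of all tested probes changed: Mmp9 by 1.20 ± 0.14 in Gadd45a-/- and by 1.23 ± 0.14 in DKO, and Ctsk by 0.71 ± 0.11 and by 0.80 ± 0.11 (limma adjusted p from 0.00409 to 0.0288). Both genes are also made by fibroblasts. Of the mast cell markers, which share Fcer1g with macrophages, only Gata2 of 10 was measured; it rose by 0.74 ± 0.12 in Gadd45a-/- and by 1.28 ± 0.12 in DKO (limma adjusted p = 0.0301 and 0.00161), a pattern unlike that of Fcer1g.

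Fibroblast and endothelial markers gave the other side of the cultures. Of 11 fibroblast markers tested, 3 fell in Gadd45a-/- (Dcn, Col3a1 and Lum), 1 in Ing1-/- (Lum) and 3 in DKO (Dcn, Lum and Pdgfra), where 1.33%, 0.417% and 3.80% of all tested probes changed, and none rose. Dcn, a collagen-binding proteoglycan, fell by 0.89 ± 0.12 in Gadd45a-/- and by 1.74 ± 0.12 in DKO (limma adjusted p = 0.0186 and 0.000763), while Col3a1, a fibrillar collagen, averaged 9.93 in Gadd45a-/- and 10.22 in DKO against 11.08 in WT. The endothelial gene Emcn exceeded WT at least 2.21-fold in Ing1-/- and at least 2.43-fold in DKO (limma adjusted p = 0.0252 and 0.00409), and Egfl7, the other of 2 measured endothelial markers, did not pass. T and NK cell markers had 1 measured gene of 10, Cd3e, and platelet markers 2 of 6, Ppbp and Gp1bb. None of these was called against WT at its brightest probe. The second Ppbp probe was above background in Gadd45a-/- alone and at least 1.27-fold higher there than in WT. That probe was tested only through Gadd45a-/-, where it is bright, so no p-value is given for it.

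**Figure D5:**
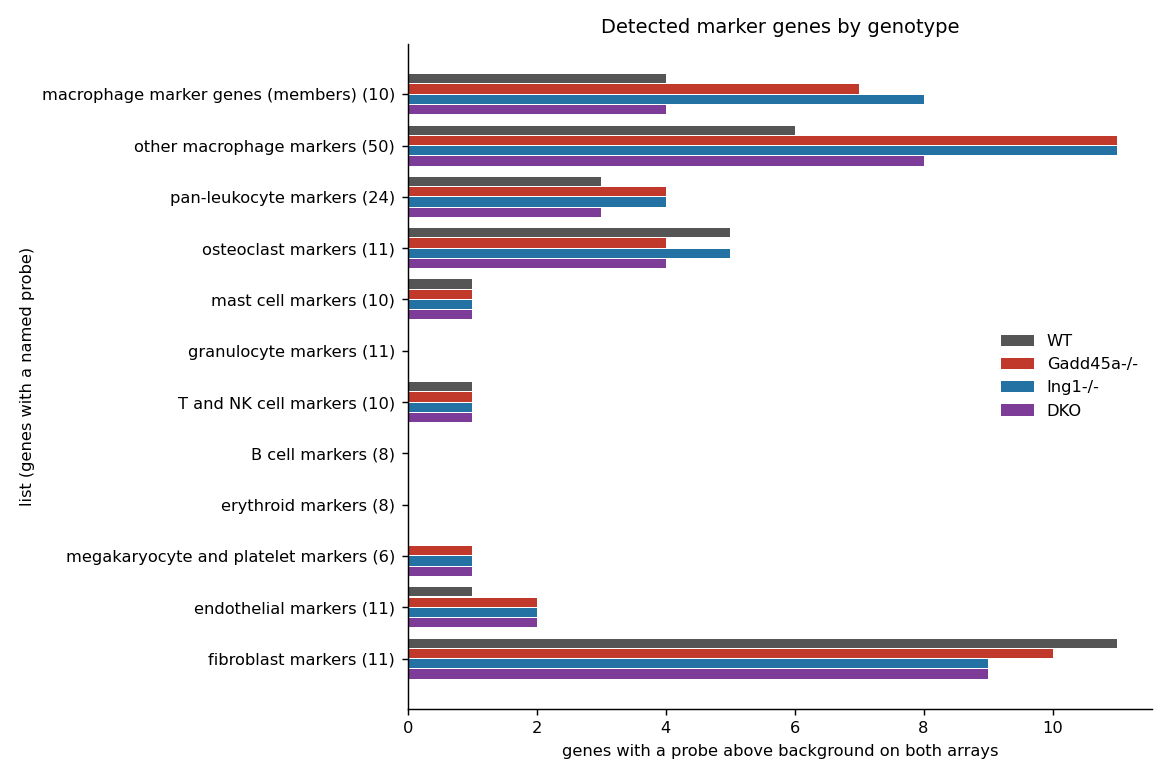
Number of genes with a probe above background on both arrays of a genotype (horizontal axis, bars by genotype) for the member genes and 11 marker lists; the number of genes with a named probe stands in brackets. The member genes go from 4 in WT to 7 in Gadd45a-/- and 8 in Ing1-/- and 4 in DKO, and the other macrophage markers from 6 to 11, 11 and 8.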

How the data were processed

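Per the file headers, the deposited non-normalized table holds average probe intensities, linear and unscaled between arrays, with detection p-values taken against negative controls. The authors' processed table of the same arrays keeps the rank order of the intensities (column medians 8.856 to 8.884); its scale looks linear, and its method stays unknown. The submitters' processing notes name GenomeStudio 2011.1 without a role. Here neqc of limma 3.58.1 (R 4.3.3) corrected the background with inferred controls, added an offset of 16, quantile-normalized and took log2; the offset shrinks the fold changes of dim probes. Testing covered 14867 of 45281 probes, those with detection p under 0.01 on both arrays of at least 1 genotype. Names follow the platform annotation (34885 probes with 1 symbol, 18 with several, 10378 with none; 34807 matched the GRCm38.p6 gene table). The limma model (lmFit, eBayes) estimated the 4 genotype means from 8 arrays, with residual df 4 and prior df 3.79. Benjamini-Hochberg adjustment ran over all tested probes, with a threshold of 0.05. A list gene is represented by its brightest tested probe. The number of arrays limits the precision.

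The members, gene lists, tests and alternatives were chosen with earlier results of these data known. Genes named are all members, Gadd45a and Ing1, 6 defining markers, 3 ligands, up to 4 called genes of each list whose groups did not overlap, and the 10 genes most like the members' mean. Coro1a, Evi2a, Arhgdib, Plcg2, Lat2, Stab1, Egfl7, Cd3e, Ppbp and Gp1bb were named after their values were seen. Numbered replicates were not treated as pairs, since the replicate differences of 2 genotypes correlated between -0.09 and 0.28. Alternatives covered background correction, offset, scaling, the authors' values, detection filters, a replicate block, the eBayes settings, the genotypes fitted and each array left out.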

Additional observations from a re-analysis of the deposited data

Results flagged for a closer look

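For 8 members every array moved up with the loss of Gadd45a while Ing1 was present and down with the same loss where Ing1 was already absent. The log2 differences were 1.02 and -0.59 for Fcer1g, 0.80 and -0.78 for Laptm5, 1.59 and -0.60 for Cd52, 0.69 and -0.53 for Lyz1, 0.83 and -0.56 for the brighter Lyz2 probe, 1.71 and -1.90 for Fcrls, 1.05 and -0.94 for Cx3cr1, and 0.82 and -0.86 for Ms4a6d. For Cd52, Fcrls, Cx3cr1 and Ms4a6d these are fitted values against readings at the background (for Cd52 in WT and on 1 DKO array). Where both arrays of the lower genotype were at the background, only bounds are measured. Gadd45a-/- over WT was at least 2.06-fold, 2.29-fold and 1.76-fold for Cd52, Fcrls and Cx3cr1. For Ms4a6d it was 1.07-fold with 1 Gadd45a-/- array itself at the background, which is no firm bound. Ing1-/- over DKO was at least 2.30-fold, 1.60-fold and 1.08-fold for Fcrls, Cx3cr1 and Ms4a6d. The difference between the 2 effects was not tested for these genes, because the pattern is the one by which they were picked. Among the other macrophage markers the interaction of the losses passed for C1qb (-3.23 on the log2 scale, limma adjusted p = 0.00906) and C1qc (-2.72, limma adjusted p = 0.0344), 2 of 12 lower where 0.135% of all tested probes were. Each was higher on both arrays of each single knockout than on all WT and DKO arrays. C1qc was above background on 1 WT and 1 DKO array, so it was tested only through the single knockouts, where it is bright. The list was drawn up with results of these arrays known, so these 2 calls are no independent evidence. Neither interaction was refitted under the other settings.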

How the results depend on the processing

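Between the single knockouts, the 1 member probe called (Lyz2) became 0 under median scaling, the authors' processed values, no detection filter, a detection p under 0.05, the replicate block, robust eBayes with a trend, a fit of only the 2 genotypes and every left-out array. Calls over all probes in that contrast, 98 in the reported fit, were 36 with no filter, 63 with a detection p under 0.05, 161 with robust eBayes, 57 with 2 genotypes and 20 to 87 with an array left out.

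The members' median difference from WT in Gadd45a-/-, 0.93, was 0.63 without background correction, 0.74 with an offset of 50, 1.01 with the authors' values, 0.83 with no filter and with the looser filter, 0.55 over all 19 probes and 0.84 to 1.06 with an array left out. In Ing1-/-, 0.74 became 0.38, 0.56, 0.64 with no filter, 0.65 with the looser filter, 0.59 with median scaling, 0.32 over all probes and 0.64 to 0.78 with an array left out. In DKO, -0.08 became -0.18 with median scaling, and -0.16 to 0.02 with an array left out, the sign turning without WT replicate 1. Between the single knockouts, 0.27 became 0.20 without background correction, 0.38 with median scaling, 0.16 with the looser filter, 0.09 over all probes and 0.21 to 0.35 with an array left out. Median scaling moved the median of all probes by -0.09, -0.18, -0.16 and 0.10 in these 4 contrasts, and took the Ing1-/- share of Lyz2 to -2.20%.

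Of the other macrophage markers, 2 calls in Gadd45a-/- became 1 with no filter, the looser filter and 2 genotypes, and 1 to 2 with an array left out. The 1 call in Ing1-/- became 2 without background correction, with an offset of 50, median scaling, the replicate block and robust eBayes, 0 with 2 genotypes and 0 to 1 with an array left out. The 1 call in DKO became 0 with median scaling, no filter, 2 genotypes and each left-out array. The causes of these changes were not tested. Leaving out an array lowers the residual degrees of freedom of every contrast, and 4 of the 9 member probes are at the background in WT, which limits their differences to bounds.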
